A study of Mus musculus with 28 samples.

Results

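Among the 25251 genes in the table of read counts and RPKM, 8 encode the ligands (Tgfb1, Tgfb2 and Tgfb3), the receptors (Tgfbr1, Tgfbr2 and Tgfbr3) and 2 latent binding proteins (Ltbp1 and Ltbp4) of the TGF-beta pathway. They were taken from the table by their symbols, and all 8 were found. RNA had been sequenced from populations sorted from Flt3+/+ C57 BL6 mice and from C57 BL6 mice with a Flt3-ITD knock-in on both alleles (Flt3 ITD/ITD), aged 8 to 10 wk; the sex of the mice is not stated in the sources used here. Flt3-ITD is a duplication within the receptor tyrosine kinase Flt3 that makes it signal without its ligand. Each library came from 1 mouse and held 100 endothelial cells (EC; CD45-Ter119-CD31+), 100 mesenchymal stromal cells (MSC; CD45-Ter119-CD31-CD166-Sca1+) or 200 bone marrow mononuclear cells (MNC). For each genotype there were 5 EC, 5 MSC and 4 MNC libraries, which makes 28. Libraries with the same replicate number are not known to come from the same mouse. The knock-in was carried by every cell of the mouse and not by a single population, so an effect within a sorted population and an effect from its surroundings cannot be told apart.

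TGF-beta ligands are made as precursors and are secreted in a latent complex, bound to their own propeptide and often to a latent TGF-beta binding protein that tethers the complex to the extracellular matrix. The freed ligand binds the type II receptor Tgfbr2, which phosphorylates the type I receptor Tgfbr1, and Tgfbr1 in turn phosphorylates Smad2 and Smad3, which enter the nucleus together with Smad4. Tgfbr3, also called betaglycan, is a co-receptor that presents ligand, Tgfb2 above all, to Tgfbr2. In the bone marrow, TGF-beta is known as a signal that holds hematopoietic stem cells in quiescence.

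Total counts ranged from 6377013 to 33880743 per library. RPKM is the read count scaled to transcript length and to the library total, and levels of different genes are compared here only in RPKM. In bulk RNA of sorted cells, fewer cells that express a gene and less RNA of that gene per cell cannot be told apart. All 6 endothelial and all 6 pan-leukocyte markers were higher in every library of their own population than in every other library. Of 6 mesenchymal stromal markers only 3 (Pdgfra, Pdgfrb and Dcn) were, since Ly6a, Lepr and Cxcl12 were also abundant in ECs. Flt3 itself was measured in MNCs, at 4.74 ± 2.44 RPKM (SD, n = 4) in Flt3+/+ and 10.8 ± 3.23 RPKM (SD, n = 4) in Flt3 ITD/ITD mice, and was close to 0 in most EC and MSC libraries, where it checks nothing of the genotype. Flt3 ITD/ITD EC replicate 2 and Flt3 ITD/ITD MSC replicate 5 held transcripts of blood cells, with a summed level of the 6 pan-leukocyte markers of 171 and 162 RPKM, against at most 20.0 in Flt3+/+ ECs and 46.6 in Flt3+/+ MSCs. Results are therefore also given without these libraries where that changed a call. Markers of other cells were also found in ECs. The sum of 5 smooth muscle and pericyte markers ranged from 74.65 to 1030 RPKM in ECs, against 16.6 to 168 in MSCs. Of these, Rgs5 averaged 325 RPKM in ECs, and Cspg4 and Cnn1 0.11 and 0.004. Dcn was at 51.1 RPKM in Flt3+/+ EC replicate 2 and 54.63 in Flt3 ITD/ITD EC replicate 5. The latter also had the highest sum of 5 osteoblast markers in ECs, 211 RPKM. In MSCs this osteoblast sum was at 1790 to 3316 RPKM in Flt3+/+ libraries (median 1895). In Flt3 ITD/ITD MSCs it was at 152 to 2823 RPKM (median 1189). Its part in the levels of MSCs and in their differences between genotypes was not tested.

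Across populations, MSCs had the highest mean level of all 8 genes and MNCs the lowest, although the difference between ECs and MSCs was not called for Tgfb1, Tgfbr2 and Ltbp4, that between ECs and MNCs was not called for Tgfb1 and Tgfbr1, and that between MSCs and MNCs was not called for Tgfb1. Expression of the ligands Tgfb2 and Tgfb3 and of the latent binding protein Ltbp1 was highest in MSCs, Tgfbr3 and Ltbp4 were abundant in both stromal populations and all but absent from MNCs, and Tgfbr1 and Tgfbr2 were found in every library. Tgfb1 was low in most libraries of all 3 populations. The plot of all 8 genes by library shows these levels.

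**Figure D1:**
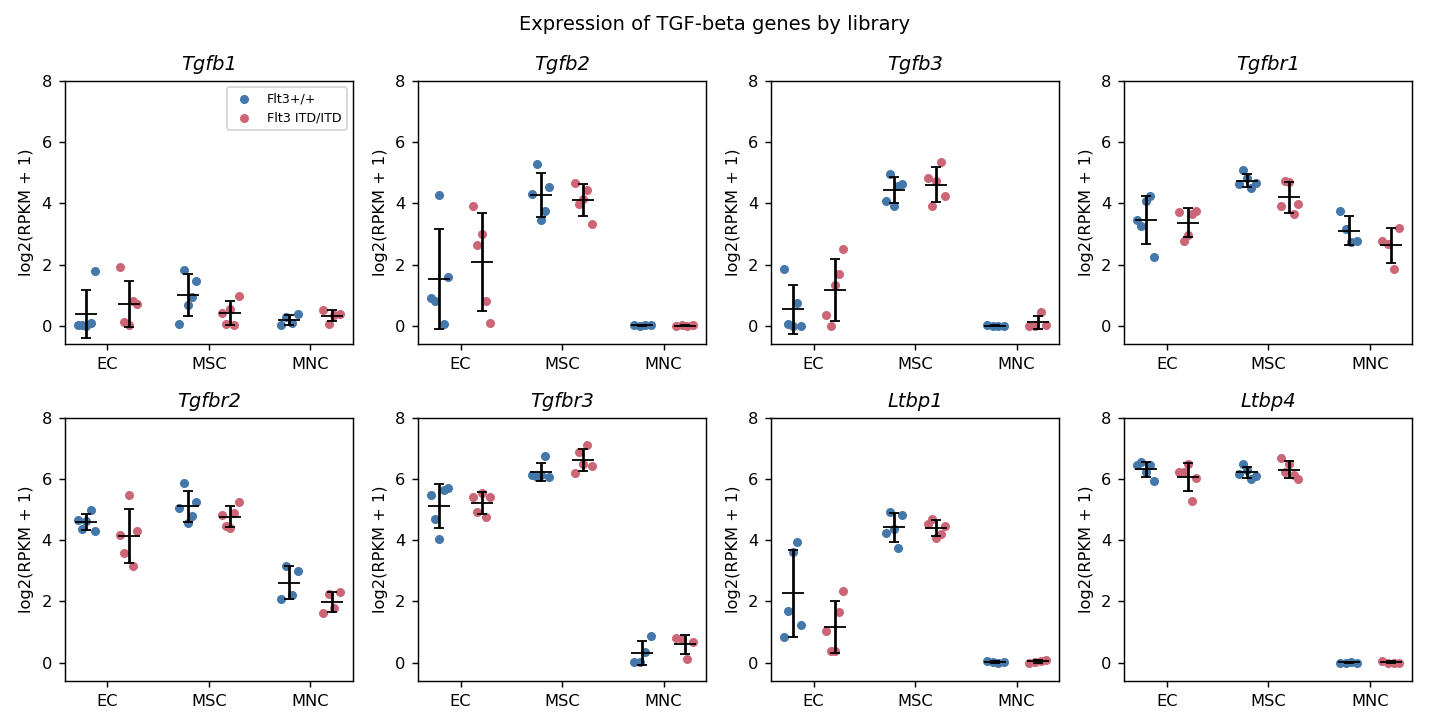
Level of each of the 8 genes as log2(RPKM + 1) in the 28 libraries, by population and genotype, with 1 point per library and with the mean and SD of each group in black. MSC libraries are the highest for Tgfb3 and Tgfbr3 without overlap with ECs, Ltbp4 is near 76.3 RPKM in MSCs and 73.9 RPKM in ECs and close to 0 in MNCs, and in each panel the genotypes overlap within every population.

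Of the ligands, Tgfb1, the form most studied in blood and immune cells, had a mean of 0.689 ± 1.06 RPKM (SD, n = 10) in ECs, 0.776 ± 0.828 RPKM (SD, n = 10) in MSCs and 0.209 ± 0.148 RPKM (SD, n = 8) in MNCs. It exceeded 1 RPKM in 4 of the 28 libraries and had at most 3 counts in 11 of them, and no difference between populations passed. In Flt3+/+ ECs it was at 0.03, 0.02, 0, 0.07 and 2.48 RPKM, so that 1 library held almost all of its counts. The gene lies on chromosome 7 (GRCm38, 25687002 to 25705077, plus strand), and its longest coding transcript has a GC content of 62.5%, higher than that of 98.4% of protein-coding genes. Ltbp4, on the same chromosome, has a GC content of 62.2% and was among the most abundant of the 8. The part of GC content in the level of Tgfb1 was not tested.

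The sequences upstream of the transcription start are shown for Tgfb1 and Tgfb2, whose promoter windows differ in GC content and motifs. They are from RefSeq (GRCm38.p6), 5′ to 3′ on the strand of the gene, and end at the base before the listed start; capitals mark the GC box GGGCGG and the TATA box TATAAA on either strand. The Tgfb1 window is chr7:25686752-25687001 (plus strand) and the Tgfb2 window is chr1:186705990-186706239 (minus strand).
Tgfb1: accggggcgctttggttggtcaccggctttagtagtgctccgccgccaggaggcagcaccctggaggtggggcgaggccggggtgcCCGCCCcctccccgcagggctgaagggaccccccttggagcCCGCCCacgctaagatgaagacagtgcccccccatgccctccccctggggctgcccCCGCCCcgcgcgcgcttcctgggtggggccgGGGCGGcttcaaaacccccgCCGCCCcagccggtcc
Tgfb2: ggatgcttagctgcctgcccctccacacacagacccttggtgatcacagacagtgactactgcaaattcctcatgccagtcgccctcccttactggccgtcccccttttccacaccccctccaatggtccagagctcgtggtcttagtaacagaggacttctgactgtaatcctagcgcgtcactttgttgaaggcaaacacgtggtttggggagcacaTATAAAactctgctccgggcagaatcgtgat
The Tgfb1 window held 5 GC boxes, no TATA box and 21 CpG dinucleotides at a GC content of 75.2%. The Tgfb2 window held no GC box, 1 TATA box and 8 CpG dinucleotides at a GC content of 53.6%. In the Tgfb1 and Tgfb2 windows shown, the marked motifs do not overlap each other. Over the 32851 promoter windows of this length, 32.7% held at least 1 GC box and 12.4% at least 1 TATA box. The median number of CpG dinucleotides was 6. A match is a description of the sequence and shows no binding. The part of the promoter sequence in the levels was not tested.

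Tgfb2 was at 18.95, 38.4, 9.95, 12.35 and 22.43 RPKM in Flt3+/+ MSCs and at 24.49, 14.67, 16.66, 20.67 and 9.09 RPKM in Flt3 ITD/ITD MSCs. In ECs it was at 0.86, 0.75, 18.41, 0.05 and 1.99 RPKM in Flt3+/+ and at 14.25, 5.27, 6.97, 0.76 and 0.06 RPKM in Flt3 ITD/ITD libraries. Every MSC library expressed the gene, whereas ECs ranged from hardly any to a level within that of MSCs. In MNCs all 8 libraries together held 7 counts.

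Tgfb3 was at 16.07, 30.21, 13.97, 22.97 and 24.11 RPKM in Flt3+/+ MSCs and at 27.27, 14.01, 25.88, 40.33 and 17.91 RPKM in Flt3 ITD/ITD MSCs. In ECs it did not exceed 2.65 RPKM in Flt3+/+ or 4.65 RPKM in Flt3 ITD/ITD libraries, and 3 of the 10 EC libraries were listed at 0. All 10 MSC libraries lay above all EC libraries. In MNCs the 8 libraries held 27 counts, of which 25 were in Flt3 ITD/ITD replicate 3. The means of Tgfb2 and Tgfb3 in MSCs, 18.8 ± 8.62 and 23.3 ± 8.27 RPKM (SD, n = 10), were not separated (exact sign-flip permutation test over libraries on log2(RPKM + 1), two-sided, p = 0.0605, adjusted over 21 such tests p = 0.0748). Both lay above Tgfb1 in all 10 MSC libraries (exact permutation p = 0.00195, the smallest this test can give, adjusted p = 0.00684). In ECs, Tgfb2 lay above Tgfb1 in 6 and below it in 3 of 10 libraries (exact permutation p = 0.0469, adjusted p = 0.0615). In MNCs, Tgfb1 lay above Tgfb2 in all 8 libraries (exact permutation p = 0.00781, adjusted p = 0.0149), at means of only 0.209 and 0.00875 RPKM.

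The share of each ligand in the summed RPKM of the 3 ligands was even among MSC libraries and uneven among EC libraries. In MSCs, Tgfb2 made up 32.5 to 54.1% and Tgfb3 42.5 to 66.1%. In ECs, Tgfb2 made up 1.12 to 100%, Tgfb3 0 to 86.8% and Tgfb1 0 to 55.5%, at a summed level of 0.80 to 18.4 RPKM. In the plot of shares by library the most abundant ligand is not the same in all EC libraries. How many of the 100 cells of a library expressed each ligand was not measured. In the EC libraries with the most Dcn, Tgfb3 was at 0.04 RPKM (Flt3+/+ replicate 2) and 4.65 RPKM (Flt3 ITD/ITD replicate 5). The part of other cell types in the EC values was not tested.

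**Figure D2:**
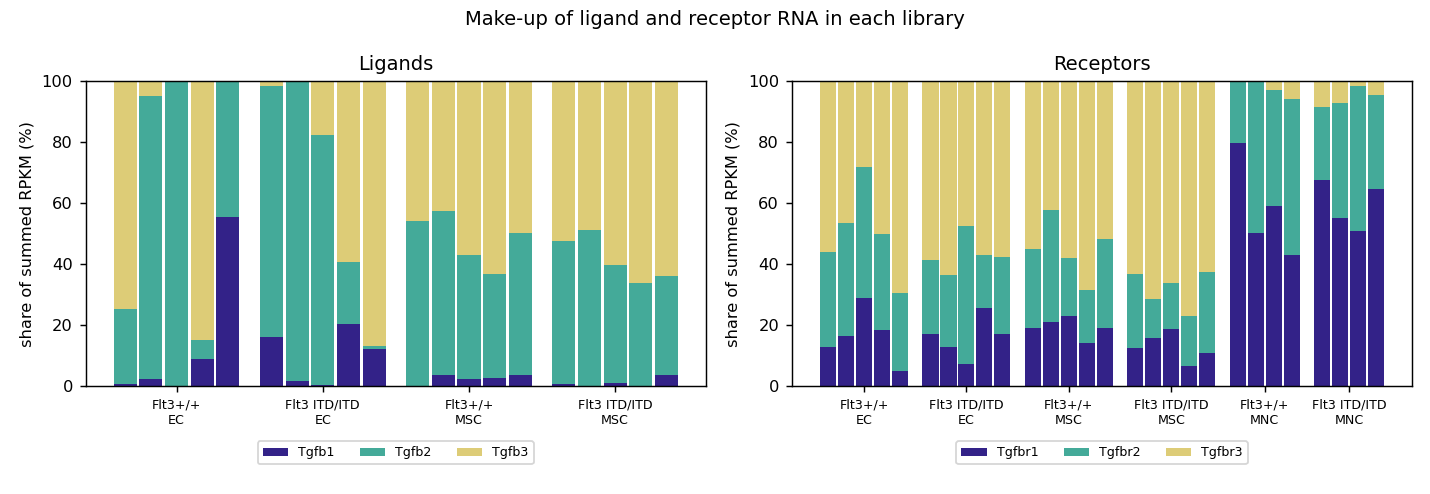
Share of each gene in the summed RPKM of the 3 ligands (left, ECs and MSCs) and of the 3 receptors (right, all populations), in percent, with 1 bar per library. MSC libraries split their ligand RNA between Tgfb2 and Tgfb3, EC libraries vary from 1.12 to 100% Tgfb2, and Tgfbr3 makes up at most 8.50% of receptor RNA in MNCs.

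Of the receptors, the type II receptor Tgfbr2 was at 31.0 ± 11.1 RPKM in MSCs (SD, n = 10), 21.5 ± 10.1 RPKM in ECs (SD, n = 10) and 4.23 ± 2.07 RPKM in MNCs (SD, n = 8). The type I receptor Tgfbr1 was at 22.1 ± 6.67, 10.5 ± 4.42 and 6.78 ± 2.91 RPKM, respectively. The co-receptor Tgfbr3 was at 87.2 ± 24.4, 36.9 ± 12.04 and 0.406 ± 0.342 RPKM. The order of the receptors thus differed between the stroma and MNCs. In ECs, Tgfbr3 lay above Tgfbr2 in 9 of 10 libraries (exact permutation p = 0.00977, adjusted p = 0.0171) and Tgfbr2 above Tgfbr1 in 9 of 10 (exact permutation p = 0.00586, adjusted p = 0.0149). In MSCs, Tgfbr3 was the highest in all 10 libraries (exact permutation p = 0.00195 against each of the others, adjusted p = 0.00684), and Tgfbr2 and Tgfbr1 were not separated after adjustment (exact permutation p = 0.0449, adjusted p = 0.0615). In MNCs, Tgfbr3 was the lowest in all 8 libraries (exact permutation p = 0.00781, the smallest possible with 8, adjusted p = 0.0149), and Tgfbr1 lay above Tgfbr2 in 7 of 8 (exact permutation p = 0.0391, adjusted p = 0.0615).

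Ltbp4, a matrix protein that binds the latent complex, ranged from 60.33 to 93.33 RPKM in Flt3+/+ ECs and from 38.02 to 88.31 RPKM in Flt3 ITD/ITD ECs. In MSCs it ranged from 63.17 to 89.23 and from 62.23 to 101.53 RPKM, respectively. It had 4 counts in all 8 MNC libraries together, and the ratio of pooled counts per total, EC over MNC, was 14493 (95% interval 5660 to 53194, counting error only). Ltbp1, a second such protein, was at 20.8 ± 5.26 RPKM in MSCs (SD, n = 10) and 3.78 ± 4.94 RPKM in ECs (SD, n = 10), with 21 counts in all MNC libraries. Ltbp4 lay above Ltbp1 in all 10 EC and all 10 MSC libraries (exact permutation p = 0.00195, adjusted p = 0.00684 for each).

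Populations were compared with edgeR's quasi-likelihood test in a model of all 28 libraries, in which a gene was called at a Benjamini-Hochberg adjusted p-value below 0.1 over all 16897 genes tested and mean RPKM that differed by at least 1 on the log2 scale. Between ECs and MSCs, 5 of the 8 genes were called, all lower in ECs, where 32.9% of all genes tested were called and 16.6% were called lower in ECs. The log2 fold change was -4.70 (SE 1.04, adjusted p = 0.000975) for Tgfb3 and -2.99 (SE 0.55, adjusted p = 0.000139) for Ltbp1. For Tgfb2 it was -2.14 (SE 0.75, adjusted p = 0.0289), for Tgfbr3 -1.54 (SE 0.45, adjusted p = 0.0100) and for Tgfbr1 -1.30 (SE 0.25, adjusted p = 0.000206). Tgfbr2 passed on its adjusted p-value (0.0255 by edgeR) but its mean RPKM differed by only -0.53 on the log2 scale, and it was not called. Ltbp4 differed by -0.29 (SE 0.27, edgeR adjusted p = 0.462). With Flt3+/+ libraries alone, 3 of the 8 were called, and Tgfb2 and Tgfbr3 no longer passed. Without Flt3+/+ EC replicate 5, Tgfbr1 was not called and 4 remained. Tgfb3 and Tgfbr3 were the 2 genes without overlap between EC and MSC libraries, beside 8.36% of all genes tested.

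Against MNCs, 6 genes were called higher in ECs (all but Tgfb1 and Tgfbr1), where 45.0% of all genes were called and 23.1% were called higher in ECs. The same 6 and Tgfbr1 were called higher in MSCs than in MNCs, where 44.3% of all genes were called and 22.2% were called higher in MSCs. EC and MNC libraries did not overlap for 5 of the 8 (18.5% of all genes), nor did MSC and MNC libraries for 6 of the 8 (21.5% of all genes). These comparisons share libraries with each other. The sum of 5 immediate-early genes (Fos, Jun, Egr1, Atf3 and Fosb) ranged from 734 to 2261 RPKM in ECs. In MSCs that sum ranged from 1214 to 3191 RPKM, and in MNCs from 9.83 to 375 RPKM. Its part in the differences from MNCs was not tested. The log2 fold change for Tgfbr2 was 2.28 (SE 0.29) in ECs and 3.03 (SE 0.30) in MSCs against MNCs, with an edgeR adjusted p of 5.61e-07 and 8.9e-09. Tgfbr1 differed between ECs and MNCs by 0.54 (SE 0.26, edgeR adjusted p = 0.0957) with a difference in mean RPKM of 0.63 on the log2 scale, below the fold rule. For Tgfb2, Tgfb3, Ltbp1 and Ltbp4, with 4 to 27 counts in all MNC libraries, the size of the fold is uncertain, and the ratio of pooled counts in MSCs over MNCs was 2036 for Tgfb2 (95% interval 988 to 5064) and 457 for Tgfb3 (314 to 694), for counting error only.

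Between genotypes, none of the 8 genes was called in any population. In ECs, edgeR called 0 of the 7 genes that passed the filter on low counts (Tgfb1 did not), where 0.00810% of all genes tested were called. In MSCs it called 0 of 8, where 0.0295% were called, and in MNCs 0 of 4, where 0.0144% were called and where Tgfb2, Tgfb3, Ltbp1 and Ltbp4 had not passed the filter. DESeq2 called none either, although 4 of the 8 had no adjusted p-value from it in MNCs, where it called 2.57%, 1.29% and 2.23% of all genes in the EC, MSC and MNC comparison. With unadjusted p-values below 0.05, edgeR had none of the 7 genes tested in ECs and none of the 8 in MSCs, against 4.99% and 4.24% of all genes. It had 1 of the 4 tested in MNCs, against 10.4% of all genes. The genotypes overlapped in RPKM for every gene in every population, where 1.14%, 0.914% and 6.71% of all genes did not overlap in ECs, MSCs and MNCs, and none of the 24 exact permutation tests passed (lowest adjusted p = 0.840). The smallest p-value of such a test is 0.00794 with 5 mice against 5 and 0.0286 with 4 against 4. After adjustment over 24 tests, a difference in a single gene could not pass 0.05 however large, so these tests cannot exclude one.

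By DESeq2, the unadjusted p-value was below 0.05 for Ltbp1 in ECs and for Tgfbr1 and Tgfbr2 in MNCs, beside 6.77%, 6.79% and 9.17% of all genes in the EC, MSC and MNC comparison.

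The gene with an unadjusted p-value below 0.05 by edgeR was Tgfbr2 in MNCs. It was at 3.22, 7.88, 3.66 and 6.9 RPKM in Flt3+/+ and at 2.09, 3.7, 2.44 and 3.92 RPKM in Flt3 ITD/ITD libraries. The log2 fold change was -1.04 (SE 0.35, edgeR p = 0.0141, adjusted p = 0.415), and the means were 5.42 ± 2.32 and 3.04 ± 0.908 RPKM (SD, n = 4 each; exact permutation p = 0.171). Tgfbr1 in MNCs was at 8.01 ± 3.23 RPKM in Flt3+/+ and 5.55 ± 2.31 RPKM in Flt3 ITD/ITD mice (SD, n = 4 each; log2 fold change -0.71, SE 0.33, edgeR adjusted p = 0.493). Its means were 10.27 and 5.66 RPKM in replicates 1 and 2, and 5.76 and 5.45 RPKM in replicates 3 and 4. The difference in mean RPKM, -2.46, was -0.93 without Flt3+/+ replicate 1 and -1.49 without Flt3 ITD/ITD replicate 3. For Tgfbr2 the means were 5.55 and 2.895 RPKM in replicates 1 and 2, and 5.28 and 3.18 RPKM in replicates 3 and 4.

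The largest fold change in ECs was that of Ltbp1, at 0.78, 2.23, 11.19, 14.41 and 1.33 RPKM in Flt3+/+ and at 1.06, 0.3, 0.31, 2.13 and 4.09 RPKM in Flt3 ITD/ITD libraries. The log2 fold change was -2.01 (SE 0.99, edgeR adjusted p = 0.9998). A pair of Flt3+/+ libraries, at 11.19 and 14.41 RPKM, lay above all Flt3 ITD/ITD libraries, and the others overlapped. The largest in MSCs was that of Tgfb1, at 1.18 ± 0.991 RPKM in Flt3+/+ and 0.372 ± 0.393 RPKM in Flt3 ITD/ITD mice (SD, n = 5 each; log2 fold change -1.66, SE 1.09, edgeR adjusted p = 0.999368). In MSCs, Tgfbr3 was at 75.0 ± 17.0 RPKM in Flt3+/+ and 99.4 ± 26.0 RPKM in Flt3 ITD/ITD mice (SD, n = 5 each; exact permutation p = 0.111). Tgfbr1 in MSCs was at 26.0 ± 4.27 and 18.3 ± 6.64 RPKM (SD, n = 5 each; exact permutation p = 0.0873). For Tgfb2 and Tgfb3 in ECs the log2 fold change was 0.26 (SE 1.44) and 1.39 (SE 1.82). Differences as large as these errors, or larger, could have been missed.

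**Figure D3:**
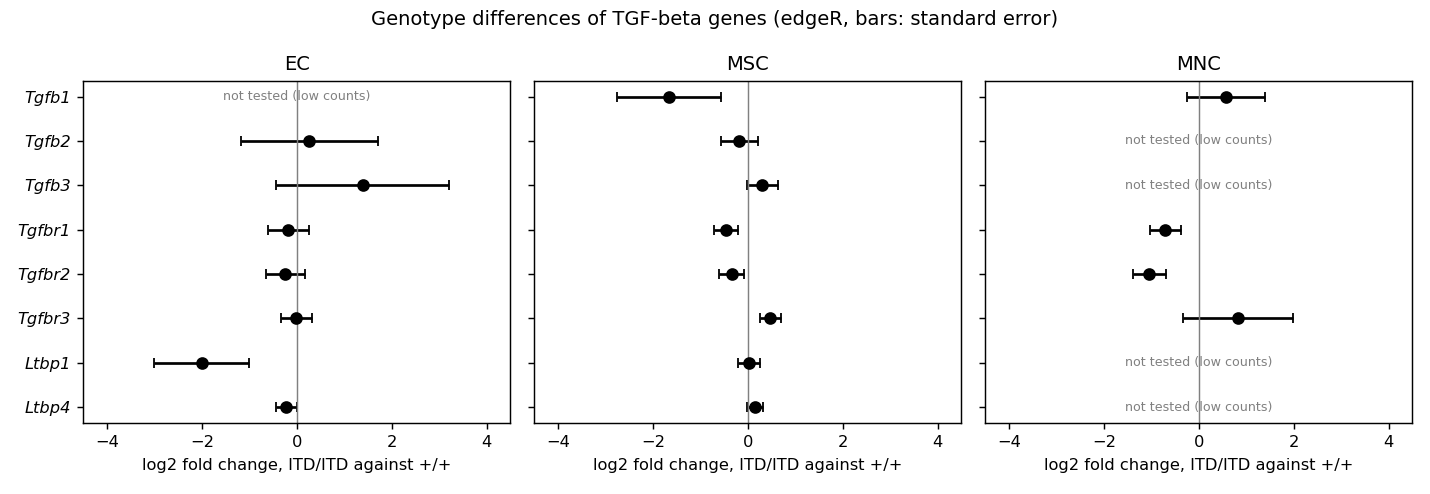
Log2 fold change of each gene in Flt3 ITD/ITD against Flt3+/+ libraries in ECs, MSCs and MNCs, from edgeR, with bars of 1 standard error on either side; genes removed by the filter on low counts are marked. None passed the threshold, and the widest bars are those of Tgfb3 (SE 1.82) and Tgfb2 (SE 1.44) in ECs.

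The difference between genotypes was also compared between populations, by the interaction term of the model of all 28 libraries. None of the 8 genes passed an adjusted p-value of 0.1 by edgeR for ECs against MSCs, ECs against MNCs or MSCs against MNCs, where 0.379%, 0.0118% and 0.00592% of all genes did. An unadjusted p-value below 0.05 was found for 0, 1 and 0 of the 8, beside 10.6%, 8.23% and 5.94% of all genes. It was that of Ltbp1 for ECs against MNCs (-2.83, SE 1.33 on the log2 scale, edgeR adjusted p = 0.587), with few counts in MNCs.

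The other genes of the pathway were read from a list of 49 in 7 groups by role. No gene of the list was called between genotypes, by edgeR, where 41, 47 and 33 could be tested in the EC, MSC and MNC comparison, and 0, 3 and 4 of them had an unadjusted p-value below 0.05, beside the 4.99%, 4.24% and 10.4% of all genes given above. DESeq2 called 0, 2 (Smad4 and Smad9 in MSCs) and 2 (Acta2 and Klf10 in MNCs), of which Acta2 and Klf10 are named after their values were seen, and 361, 193 and 327 over all genes (2.57%, 1.29% and 2.23%). In ECs, MSCs and MNCs the median log2 fold change of the list was 0.14, -0.19 and 0.06, respectively, where the median of all genes tested was -0.01, 0.03 and -0.01. Smad4, the partner of Smad2 and Smad3 in the nucleus, was at 21.69, 33.38, 31.28, 31.32 and 28.55 RPKM in Flt3+/+ MSCs and at 10.68, 7.16, 5.21, 12.38 and 11.93 RPKM in Flt3 ITD/ITD MSCs. All Flt3 ITD/ITD libraries lay below all Flt3+/+ libraries, beside 0.914% of all genes whose genotypes did not overlap in MSCs. The log2 fold change was -1.57 (SE 0.29) and did not pass by edgeR (adjusted p = 0.322), whereas DESeq2 gave an adjusted p of 3.96e-05. In MNCs it was -0.68 (SE 0.25, edgeR adjusted p = 0.419), and in ECs 0.11 (SE 0.55, edgeR adjusted p = 0.9998). Thbs1, which can release TGF-beta from its latent form, was at 16.3 ± 3.36 RPKM in Flt3+/+ and 6.76 ± 5.48 RPKM in Flt3 ITD/ITD MNCs (SD, n = 4 each), without overlap, beside 6.71% of all genes (log2 fold change -1.47, SE 0.62, edgeR adjusted p = 0.461). In Flt3 ITD/ITD MNCs it was at 11.77 and 11.23 RPKM in replicates 1 and 2, and 1.85 and 2.18 RPKM in replicates 3 and 4. In Flt3+/+ MNCs Thbs1 was at 16.79 and 12.88 RPKM in replicates 1 and 2, and 20.7 and 14.7 RPKM in replicates 3 and 4. The sum of 5 immediate-early genes differed between these pairs in MNCs of both genotypes. It was at 169 to 375 RPKM in replicates 1 and 2, and 9.83 to 24.2 RPKM in replicates 3 and 4. Its relation to Thbs1 was not tested. Platelets also hold Thbs1, and the summed level of 6 megakaryocyte and platelet markers ranged from 12.8 to 30.7 RPKM in Flt3+/+ and from 3.66 to 12.5 RPKM in Flt3 ITD/ITD MNCs, likewise without overlap. Between 4 and 6 of these markers were detected in a Flt3+/+ library and 3 or 4 in a Flt3 ITD/ITD library, and their part in the difference of Thbs1 was not tested.

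Between populations, 23 of 47 pathway genes tested were lower and 7 higher in ECs than in MSCs, with a median log2 fold change of -1.71 where the median of all genes was -0.01 and 16.6% of all genes were lower and 16.3% higher. Against MNCs, 30 of 47 were higher and 4 lower in ECs, where 23.1% of all genes were higher and 22.0% lower. In MSCs, 40 of 47 were higher and 1 lower than in MNCs, where 22.2% of all genes were higher and 22.0% lower. All 4 matrix proteins that bind TGF-beta were higher in MSCs than in ECs and MNCs. Dcn, a matrix proteoglycan that binds TGF-beta, had a mean of 23919 RPKM in MSCs, 11.5 RPKM in ECs and no count in MNCs. Among the canonical Smads, Smad3 was at 13.8 ± 7.81 RPKM in MSCs (SD, n = 10), 0.174 ± 0.280 RPKM in ECs (SD, n = 10) and 3.004 ± 0.988 RPKM in MNCs (SD, n = 8), and was called lower in ECs than in both. Smad2 was at 5.14 to 8.17 RPKM on average and did not pass between any of the populations. Of the co-receptors, Eng, an endothelial co-receptor, had a mean of 50.8 ± 21.1 RPKM in ECs (SD, n = 10) and 4.21 ± 2.96 RPKM in MSCs (SD, n = 10). Acvrl1, the type I receptor that pairs with it, was at 19.7 ± 11.3 and 5.54 ± 2.69 RPKM, respectively. Both were called higher in ECs than in MSCs, as was Smad1, a Smad of the BMP branch that Acvrl1 phosphorylates, at 29.5 ± 17.2 and 6.49 ± 4.17 RPKM (SD, n = 10 each). Nrros, which anchors latent TGF-beta on myeloid cells, was at 69.1 ± 16.8 RPKM in MNCs (SD, n = 8), 3.72 ± 5.36 RPKM in ECs and 0.297 ± 0.113 RPKM in MSCs (SD, n = 10 each), and was the 1 gene called lower in MSCs than in MNCs. Of the target genes, Fn1, Col1a2 and Col1a1, the 3 with the highest mean RPKM, were called higher in MSCs than in both other populations. These collagens and fibronectin are also products of any matrix-forming cell. Over all 13 target genes tested, 7 were called lower and 2 higher in ECs than in MSCs, and 4 were not called. Against MNCs, 10 were called higher in MSCs and 3 were not called.

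**Figure D4:**
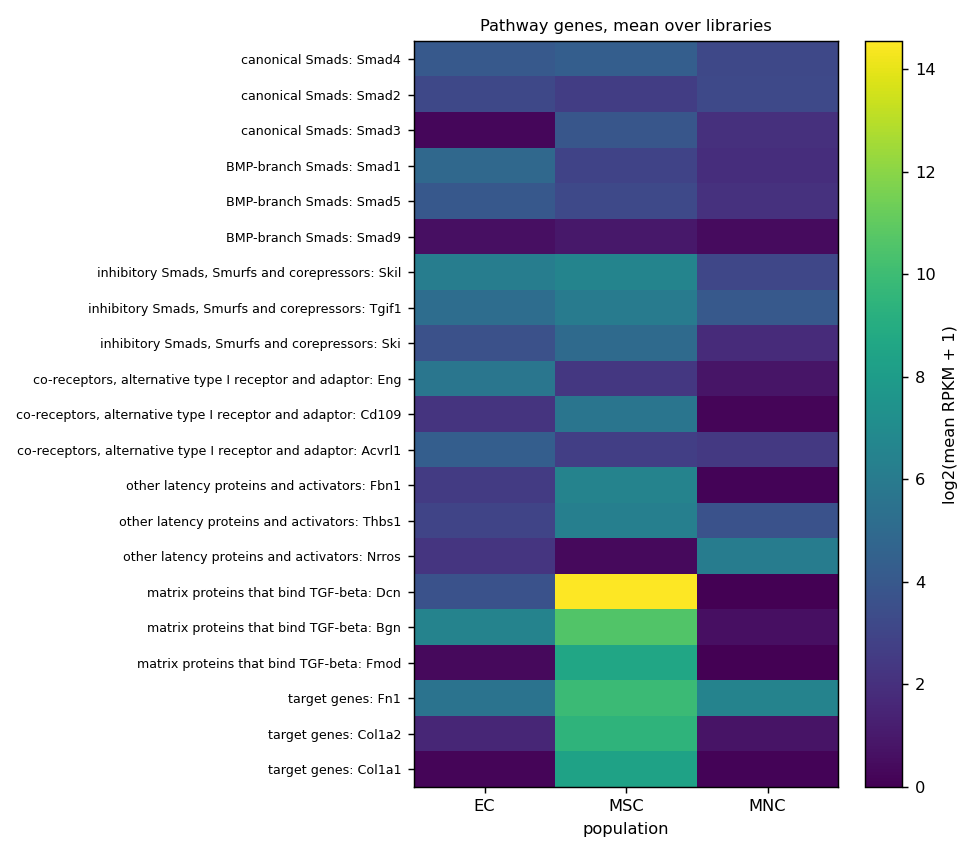
Mean level over libraries, as log2(mean RPKM + 1) on the color scale, of the 3 most abundant pathway genes of each role group in ECs, MSCs and MNCs. The matrix proteins and target genes shown are highest in MSCs, Eng, Acvrl1 and Smad1 in ECs, and Nrros in MNCs.

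The genes most like each of the 8 in their pattern over the 28 libraries were sought among the 13727 genes with a mean of at least 1 RPKM, by Pearson's r of log2(RPKM + 1). Since the libraries fall into populations, r mostly describes the order of the populations. The most alike were Htra1 (r = 0.92) for Tgfb2, Antxr1 (r = 0.97) for Tgfb3, Frmd6 (r = 0.85) for Tgfbr1 and Rab2a (r = 0.92) for Tgfbr2. For Tgfbr3 it was Sparc (r = 0.98), for Ltbp1 Rbms3 (r = 0.95) and for Ltbp4 Ppap2b (r = 0.99), and for Tgfb1 no gene exceeded r = 0.77 (Zbtb2). In second place were Pmepa1 for Tgfb2, Rab34 for Tgfb3, Ltbp1 for Tgfbr1, Sparc for Tgfbr2, Sgce for Tgfbr3, Igf1 for Ltbp1, Igfbp7 for Ltbp4 and Pkia for Tgfb1.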

How the data were processed

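RNA of ECs, MSCs and MNCs had been amplified with a SMARTer kit and sequenced. For each gene the authors deposited read counts, estimated by RSEM from Bowtie alignments to mm10 and given as whole numbers, and the authors deposited RPKM to 2 decimals; versions are not given in the sources used here. The reads carry no molecular identifiers and were amplified, so intervals and the floor of 3 counts cover counting error only.

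Libraries were grouped by their labels. Counts were tested in R 4.3.3 with edgeR 4.0.16 (quasi-likelihood test, TMM, filterByExpr, Benjamini-Hochberg over all genes tested), and with DESeq2 1.42.0 as an alternative. Genotypes were fitted per population, and populations and interactions in 1 model of 6 groups. The SE given with an edgeR fold change is its size on the log2 scale divided by the square root of the F statistic. Exact permutation tests used RPKM and went through every arrangement, 24 for genotype and 21 for levels, the latter on log2(RPKM + 1). They were called below an adjusted p-value of 0.05. Intervals of the pooled count ratios were derived from exact binomial intervals with scipy 1.17.1. P-values measure the spread between these libraries, which holds that between mice and that from preparing libraries of 100 or 200 cells. Gene positions and transcripts are those of GENCODE on GRCm38. The 8 genes and all lists were chosen with earlier results of these data known. Named pathway genes are the 3 with the highest mean RPKM of each role group; the 2 genes most alike were named for each of the 8. Alternatives were another normalization, no filter, DESeq2, adjusted p alone, a replicate block, Flt3+/+ libraries alone, libraries with blood transcripts left out, and each library left out in turn. Exact tests and level comparisons without the libraries with blood transcripts, and the MNC values by pairs of replicates, were added after seeing the data.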

Additional observations from a re-analysis of the deposited data

Results flagged for a closer look

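Among the 48 sets of 4 or 5 libraries (8 genes, 3 populations, 2 genotypes), 9 (18.8%) held a library whose gap to the nearest of the others was a large part of the range of the set, where chance gives about 5%; RPKM is skewed, and many of these sets lie near the floor. Of the ligands in ECs, Tgfb1 was at 2.48 RPKM in Flt3+/+ replicate 5, with 0.07 RPKM next, and at 2.76 RPKM in Flt3 ITD/ITD replicate 1, with 0.76 RPKM next. Tgfb2 was at 18.41 RPKM in Flt3+/+ EC replicate 3, with 1.99 RPKM next, and Tgfb3 at 2.65 RPKM in Flt3+/+ EC replicate 1, with 0.68 RPKM next. These are 4 different libraries. In MSCs, Tgfbr3 was at 105.4 RPKM in Flt3+/+ replicate 4, with 68.99 RPKM next and the other libraries close together. In MNCs, Tgfb3 was at 0.36 RPKM (25 counts) in Flt3 ITD/ITD replicate 3. The others were of 1 to 3 counts, with Tgfb3 at 0.02 RPKM in Flt3+/+ MNC replicate 1, Ltbp4 at 0.01 RPKM in Flt3+/+ MNC replicate 3 and Ltbp4 at 0.04 RPKM in Flt3 ITD/ITD MNC replicate 1. The cause of these values was not tested.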

How the results depend on the processing

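The count of genes called between genotypes depended on the test and fit. In ECs 1 gene was called, and 275 in 1 model of all 28 libraries, 361 by DESeq2 and 0 without the filter on low counts. In MSCs 4 were called, and 18, 193 and 2, respectively, and in MNCs 2 were called, and 6 in the model of all libraries and 327 by DESeq2. Leaving out each library in turn gave 0 to 0 genes in ECs, 0 to 2 in MSCs and 0 to 1 in MNCs. In none of these was 1 of the 8 genes called. The cause was not tested. With the replicate number as a block, 0 genes were called in each population. Deviations of same-numbered libraries of the genotypes were weakly correlated, from -0.0723 to 0.0638. Their median was 0.0238 in ECs and 0.0439 in MSCs, against -0.0143 and -0.0124 for libraries of different numbers. In MNCs these medians were 0.000615 and -0.00282. In ECs and in MSCs 3 of 5 libraries were closest to their own number, and in MNCs 1 of 4. What same-numbered libraries share beyond the number was not tested. For the interaction of ECs against MSCs, 64 genes passed, 12 without the filter, 1 with the replicate block and 3 to 125 with each library left out; the ranges were 2 to 12 for ECs against MNCs and 1 to 4 for MSCs against MNCs. Of the 8 genes, 3 were called between ECs and MSCs with Flt3+/+ libraries alone. None of the level comparisons passed with these libraries alone (0 instead of 12), where 5 libraries cannot give an adjusted p below 0.05. These directions turned. The log2 difference between genotypes of Tgfbr3 in ECs, -0.01, was 0.01 (0.0081) without the filter and 0.056 with the replicate block. Tgfb1 between ECs and MNCs, 1.55, was -0.20 with the block, and between ECs and MSCs, -0.18, was 0.30 without the libraries with blood transcripts. Tgfb2 minus Tgfb3 in MNCs, -0.05, was 0.01 (0.00718) in Flt3+/+ libraries. With each library left out in turn, these values changed sign. Between genotypes in ECs on the log2 scale, Tgfb2 ranged from -0.45 to 2.59, Tgfbr1 from -0.40 to 0.0098 and Tgfbr3 from -0.20 to 0.12. Between genotypes in MSCs, Tgfb2 ranged from -0.34 to 0.17 and Ltbp1 from -0.11 to 0.17. Between ECs and MSCs, Tgfb1 ranged from -2.16 to 0.15. Between ECs and MNCs, Tgfb1 ranged from -0.40 to 1.91. For the interaction of ECs against MSCs, Tgfb2 ranged from -0.26 to 2.73 and Tgfbr2 from -0.44 to 0.30. For that of ECs against MNCs, Tgfb1 ranged from -1.08 to 4.09, Tgfb3 from -4.43 to 1.20 and Ltbp4 from -3.17 to 1.64. For that of MSCs against MNCs, Tgfb2 ranged from -0.054 to 1.41, Tgfb3 from -5.49 to 0.13, Tgfbr3 from -1.78 to 0.073 and Ltbp4 from -2.78 to 2.03. For the difference of mean RPKM between genotypes, Tgfb1 in ECs ranged from -0.14 to 0.83, Tgfb2 in ECs from -1.15 to 4.55, Tgfb2 in MSCs from -5.92 to 1.20, Tgfb2 in MNCs from -0.0067 to 0.00083, Tgfb3 in MSCs from -0.20 to 6.38, Tgfbr1 in ECs from -3.36 to 0.18, Tgfbr3 in ECs from -5.31 to 3.66, Ltbp1 in MSCs from -3.18 to 1.10, Ltbp4 in MSCs from -0.16 to 9.67 and Ltbp4 in MNCs from -0.0025 to 0.011. For the level difference, Tgfb2 minus Tgfb3 in MNCs ranged from -0.061 to 0.0062. Tgfb2, Tgfb3, Ltbp1 and Ltbp4 had 4 to 27 counts in all MNC libraries together, and Tgfb1 at most 3 counts in 11 of the 28 libraries, which limits the precision of these values.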
